A study of Mus musculus with 8 samples.

Results

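The metallothionein and zinc response genes comprised 5 genes: the metallothioneins Mt1, Mt2 and Mt3, the metal sensor Mtf1 and the zinc exporter Slc30a1. They were found by symbol among the 54418 Ensembl genes counted in 8 libraries of sorted mouse melanocyte stem cells, and 4 of the 5 passed the filter on low counts, against 16011 genes in all. The group was chosen by gene name with the Bmi1-deleted against control log2 changes of these same libraries, that of Mt2 among them, already known. The values of the 5 genes in that contrast are therefore given as a description, and nothing is read from test calls on them. Bmi1 encodes a subunit of a Polycomb repressive complex, and the study compared the stem cells with and without its targeted disruption. The 4 Bmi1-deleted libraries came from mice that carried floxed Bmi1 (Bmi1fl/fl), the Cre transgene Tyrosinase-Cre and the reporter pair Dct-rtTA and TRE-H2B-GFP. The 4 control libraries came from mice with the same floxed gene and reporter pair but no Cre, which the design text calls wild type. All mice were of mixed C57Bl-6;129Sv strain, were fed doxycycline, which switches the reporter on, and gave dorsal skin at postnatal day 21. Tyrosinase-Cre acts where the promoter of Tyr is active and the sort used GFP driven through Dct, so both steps rest on pigment cell genes. No label says that replicates came from separate animals, so the spread between libraries may be technical in part. Read from expression, each group held libraries of both sexes, as given below.

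Metallothioneins are small cytosolic proteins in which many cysteines bind zinc and copper, and also cadmium, and buffer the free metal. When zinc rises, the zinc finger protein MTF-1, encoded by Mtf1, enters the nucleus and binds metal response elements in the promoters of Mt1, Mt2 and Slc30a1. Mt1 and Mt2 are made in most tissues and are also induced by glucocorticoids and stress, Mt3 is known mainly from brain, and Slc30a1 (ZnT1) moves zinc out of the cell through the plasma membrane. In melanocytes metals matter directly, since tyrosinase is a copper enzyme.

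Mt1 (ENSMUSG00000031765, mm10 chromosome 8, 94179082 to 94180327, plus strand) and Mt2 (ENSMUSG00000031762, chromosome 8, 94172664 to 94173568, plus strand) lie next to each other, and the values below turn on the difference between them. Their coding sequences, shown to compare the paralogs, were read from transcripts Mt1-201 and Mt2-201 of GENCODE M21 (GRCm38), with the cysteine codons in capitals.
Mt1: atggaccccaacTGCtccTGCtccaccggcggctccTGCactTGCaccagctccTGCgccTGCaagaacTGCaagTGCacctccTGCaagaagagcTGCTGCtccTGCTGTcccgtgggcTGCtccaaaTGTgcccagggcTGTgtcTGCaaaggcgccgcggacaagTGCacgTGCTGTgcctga
Mt2: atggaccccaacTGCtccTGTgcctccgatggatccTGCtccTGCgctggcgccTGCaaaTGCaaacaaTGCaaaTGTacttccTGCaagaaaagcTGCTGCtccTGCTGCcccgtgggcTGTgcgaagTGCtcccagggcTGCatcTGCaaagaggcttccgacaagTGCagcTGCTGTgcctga
Each has 61 codons before the stop, and 20 of them encode cysteine. All 20 cysteine codons stand at the same places in both genes. The sequences share 148 of 186 bases (79.6%), with a longest identical run of 20 bases. Of the 1273 different 31-base words in the annotated Mt1 transcripts, 0 occur in Mt2 or in any other annotated gene, and of the 573 words of Mt2 only 3 occur elsewhere, in Pip5k1a. At that word length the annotated transcripts of the pair have no sequence in common.

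The promoters of the genes were searched for the core of the metal response element, TGCACNC or TGCGCNC, on both strands, from 250 bases before to 30 bases after the RefSeq start. The windows of the 3 genes in which it was found are printed from the RefSeq table (GRCm38.p6, all on the plus strand), with each match in capitals.
Mt1, chr8:94178839-94179118: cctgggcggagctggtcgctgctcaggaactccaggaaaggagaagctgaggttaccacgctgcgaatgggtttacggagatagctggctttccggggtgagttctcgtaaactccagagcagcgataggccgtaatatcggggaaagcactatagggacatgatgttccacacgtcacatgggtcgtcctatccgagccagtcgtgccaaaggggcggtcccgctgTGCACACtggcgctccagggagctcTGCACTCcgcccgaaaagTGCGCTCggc
Mt2, chr8:94172368-94172647: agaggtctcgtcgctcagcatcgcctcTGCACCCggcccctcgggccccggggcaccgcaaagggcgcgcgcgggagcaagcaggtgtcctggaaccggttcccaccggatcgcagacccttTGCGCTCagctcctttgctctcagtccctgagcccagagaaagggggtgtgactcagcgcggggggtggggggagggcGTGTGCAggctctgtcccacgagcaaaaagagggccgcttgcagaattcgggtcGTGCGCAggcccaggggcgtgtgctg
Slc30a1, chr1:191906531-191906810: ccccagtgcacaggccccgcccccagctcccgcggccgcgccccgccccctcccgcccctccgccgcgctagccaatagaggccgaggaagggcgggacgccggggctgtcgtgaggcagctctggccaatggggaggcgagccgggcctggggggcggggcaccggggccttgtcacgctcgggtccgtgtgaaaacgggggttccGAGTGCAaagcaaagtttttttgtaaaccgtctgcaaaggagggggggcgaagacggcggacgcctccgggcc
The Mt2 window held 4 matches, 2 on each strand, the Mt1 window 3, all on the plus strand, and the Slc30a1 window 1, on the minus strand. The Mtf1 and Mt3 windows held 0. Of the 32851 windows of that length, 24.1% held at least 1 match and 1.73% held at least 3. A match describes the letters of these windows and is not evidence of binding. The windows follow the RefSeq start, and the GENCODE starts differ. For Mt1 GENCODE has further starts downstream, at 94179211 and 94179241, which the window does not reach. The Mt2 window ends before both GENCODE starts of Mt2, at 94172664 and 94172860, and the Mtf1 window begins at 124802299, downstream of the first GENCODE start at 124802104. The counts of matches therefore do not cover the bases around those starts.

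The libraries held 8882656 to 10368174 counts each. Counts were scaled to library size (CPM) with the TMM factors of edgeR, and 3 counts correspond to 0.298 to 0.340 CPM. Bmi1 itself stood at 69.6 ± 0.880 CPM in Bmi1-deleted and 83.4 ± 10.0 CPM in control libraries (SD, n = 4 each), and in TPM at 13.4 ± 4.84 in Bmi1-deleted and 30.4 ± 6.14 in control libraries. Its groups did not overlap on either scale. The count covers the whole gene, including exons that the deletion may leave. The first principal component (27.2% of the variance) parted replicates 1 and 2 from replicates 3 and 4 in both groups, so values are also given within those sets of replicates. All 12 melanocyte markers were counted in every library, and their summed level was 5261 to 10753 CPM in Bmi1-deleted and 9268 to 15341 CPM in control libraries. Fibroblast markers summed to 7385 to 16487 CPM in Bmi1-deleted and 4348 to 7465 CPM in control libraries, and Schwann cell markers to 3557 to 4629 CPM in Bmi1-deleted and 1988 to 3435 CPM in control libraries, without overlap. Suprabasal keratinocyte markers summed to 163 to 843 CPM in Bmi1-deleted and 199 to 345 CPM in control libraries, and basal keratinocyte markers to 603 to 1287 CPM in Bmi1-deleted and 917 to 1146 CPM in control libraries. Endothelial markers summed to 20.0 to 72.6 CPM in Bmi1-deleted and 10.6 to 27.5 CPM in control libraries, mural markers to 46.9 to 184 CPM in Bmi1-deleted and 38.8 to 79.9 CPM in control libraries, and immune markers to 59.5 to 132 CPM in Bmi1-deleted and 35.3 to 66.5 CPM in control libraries. The fibroblast, endothelial, mural and immune lists had 0 to 2 markers at 0 in a library, the other lists 0. In these bulk samples a lower share of a cell type and less RNA per cell cannot be told apart.

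Mt1 was the most abundant of the 5 genes per length, and its mean CPM was higher in the Bmi1-deleted libraries. It had 2678, 3070, 2608 and 2053 counts in Bmi1-deleted libraries 1 to 4, against 2060, 2453, 1454 and 1324 in control libraries 1 to 4. Scaled, these were 295, 305, 290 and 233 CPM in Bmi1-deleted and 219, 253, 156 and 150 CPM in control libraries. Bmi1-deleted library 4 lay below control library 2, so the groups overlapped. Mt1 was higher in all 4 same-numbered pairs. No label says that the numbers pair the libraries, and the share of all genes that differ the same way in all 4 is not given. These counts of pairs, here and for Mt2 and Slc30a1 below, therefore only describe the values. The means were 281 ± 32.6 CPM in Bmi1-deleted and 194 ± 50.0 CPM in control libraries (SD, n = 4 each), 145% of control, a log2 change of 0.53 with a standard error (SE) of 0.17. On the per-length scale of the second deposited table, TPM (transcript abundance with length taken into account), Mt1 ranked 83rd of the 16011 tested genes by its mean over all libraries. On that scale it averaged 186 ± 39.2 TPM in Bmi1-deleted and 176 ± 93.4 TPM in control libraries, a difference smaller than either SD. Control library 2 had 298 TPM, more than any Bmi1-deleted library.

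Mt2 differed in the opposite direction. It had 504, 498, 330 and 280 counts in Bmi1-deleted libraries 1 to 4, against 613, 951, 486 and 576 in control libraries 1 to 4. Scaled, these were 55.6, 49.5, 36.7 and 31.7 CPM in Bmi1-deleted and 65.1, 97.9, 52.0 and 65.2 CPM in control libraries. Bmi1-deleted library 1 lay above control library 3, so these groups overlapped too, while Mt2 was lower in all 4 same-numbered pairs. The means were 43.4 ± 11.1 CPM in Bmi1-deleted and 70.1 ± 19.6 CPM in control libraries, 61.9% of control (log2 change −0.69, SE 0.22). In TPM the means were 37.3 ± 12.3 in Bmi1-deleted and 80.1 ± 48.1 in control libraries, and Mt2 ranked 364th of the tested genes. An antisense gene, Gm45774, overlaps Mt2 on the other strand. It had 5 to 18 counts in Bmi1-deleted and 0 to 8 counts in control libraries, few beside those of Mt2. The kit keeps strand, but whether the counting used it is not stated.

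**Figure D1:**
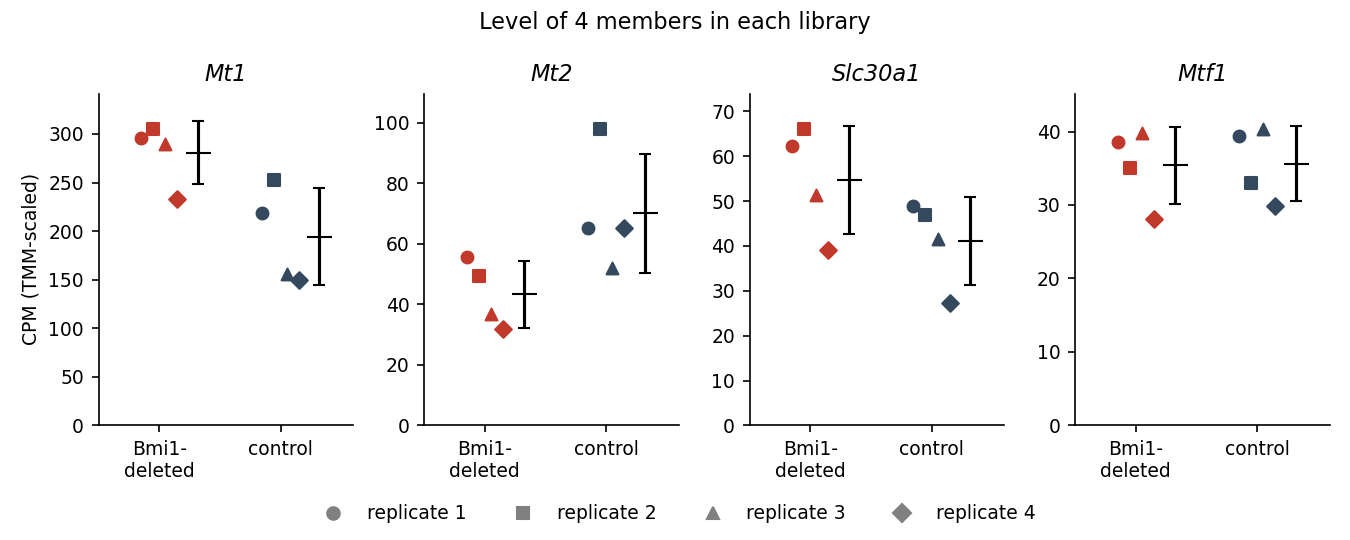
Level of Mt1, Mt2, Slc30a1 and Mtf1 in each library, in CPM on separate vertical axes that start at 0, with Bmi1-deleted libraries in red on the left and control libraries in blue on the right of each panel. Marker shapes give the replicate number and the black bars the mean ± SD of 4 libraries; Mt1 averaged 281 CPM in Bmi1-deleted and 194 CPM in control libraries, Mt2 43.4 CPM in Bmi1-deleted and 70.1 CPM in control libraries.

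As a pair, Mt1 and Mt2 differed in make-up between the groups without overlap, while the level of each gene overlapped. Mt1 made up 84.2%, 86.0%, 88.8% and 88.0% of the Mt1 plus Mt2 counts in Bmi1-deleted libraries 1 to 4, against 77.1%, 72.1%, 74.9% and 69.7% in control libraries 1 to 4. The groups did not overlap. The lowest Bmi1-deleted share had a 95% exact binomial interval of 82.8% to 85.4%, and the highest control share one of 75.4% to 78.6%. These intervals cover counting error only, and the counts include PCR copies. Libraries of 1 group differed from each other by 12.2 to 38.2 times the variance of counting, so the intervals do not measure the spread between libraries. The mean share was 86.7% ± 2.07 in Bmi1-deleted and 73.4% ± 3.24 in control libraries (SD, n = 4 each), a difference of 13.3 percentage points. In TPM the share was 83.5% ± 2.24 in Bmi1-deleted and 69.0% ± 3.51 in control libraries, again without overlap. Per length there were 5.16 ± 0.816 Mt1 transcripts for each Mt2 transcript in Bmi1-deleted and 2.26 ± 0.367 in control libraries. This share was formed after the values of both genes were seen and is a description. It combines those same values, so its lack of overlap adds no support to them. The share was not compared with that of other pairs of genes. The summed level of the pair was 324 ± 41.7 CPM in Bmi1-deleted and 264 ± 67.1 CPM in control libraries, and the 354 CPM of Bmi1-deleted library 2 was close to the 351 CPM of control library 2.

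**Figure D2:**
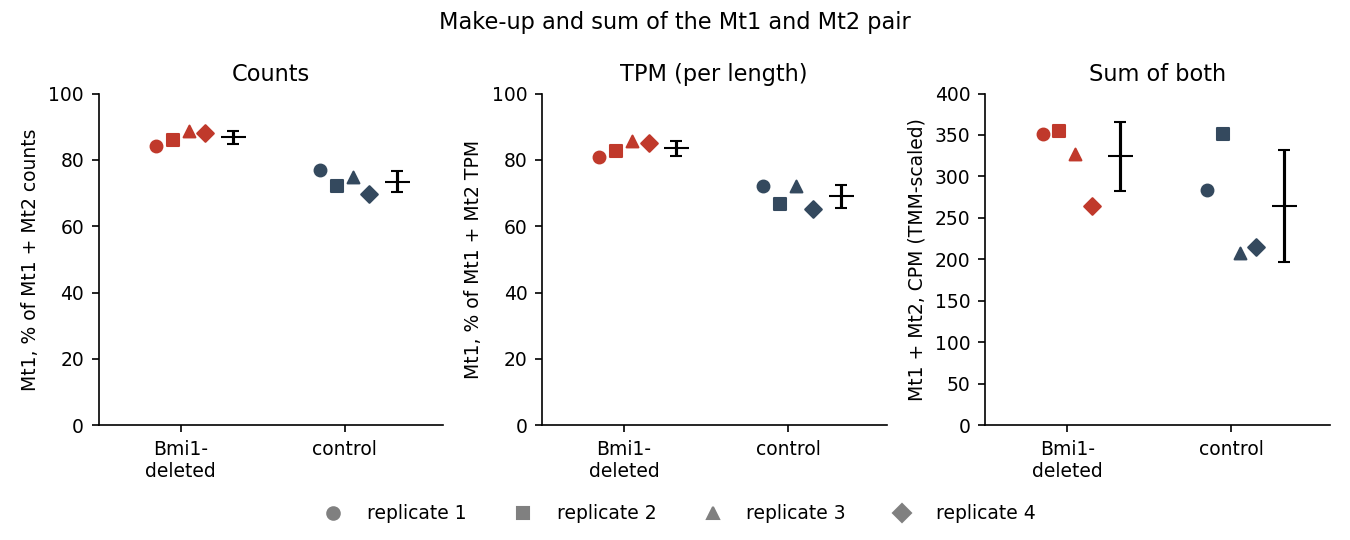
Share of Mt1 in the Mt1 plus Mt2 counts (left, percent), the same share in TPM (middle, percent) and the summed CPM of both genes (right) in each library, with Bmi1-deleted in red left of control in blue. Black bars are the mean ± SD of 4 libraries; the shares do not overlap between the groups, from 84.2% upward in Bmi1-deleted and up to 77.1% in control libraries, while the sums do.

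Mt3 (ENSMUSG00000031760, chromosome 8, 94152607 to 94154146), the metallothionein known from brain, was barely counted. It had 0, 2, 1 and 5 counts in Bmi1-deleted and 0, 1, 0 and 0 counts in control libraries. Only Bmi1-deleted library 4 was above the floor of 3 counts, so no fold change is given. Mt4, the fourth gene of the cluster and known from squamous epithelium, had 6 counts in Bmi1-deleted library 3 and 0 in the other 7 libraries, where a count of 0 allows up to 0.340 CPM.

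Slc30a1 (ENSMUSG00000037434, chromosome 1, 191906767 to 191913247), the zinc exporter under MTF-1, went the way of Mt1. It had 62.3, 66.1, 51.4 and 39.1 CPM in Bmi1-deleted libraries 1 to 4, against 48.9, 46.9, 41.5 and 27.3 CPM in control libraries 1 to 4. It was higher in all 4 same-numbered pairs, but Bmi1-deleted library 4 lay below 3 of the control libraries. The means were 54.7 ± 12.1 CPM in Bmi1-deleted and 41.1 ± 9.75 CPM in control libraries (log2 change 0.41, SE 0.21). In TPM they were 6.80 ± 2.57 in Bmi1-deleted and 6.35 ± 2.79 in control libraries.

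Mtf1 (ENSMUSG00000028890, chromosome 4, 124802104 to 124849800), the sensor itself, had almost the same mean CPM in the groups but a lower mean TPM in Bmi1-deleted libraries. It had 38.6, 35.0, 39.8 and 28.1 CPM in Bmi1-deleted libraries 1 to 4 and 39.4, 33.0, 40.3 and 29.9 CPM in control libraries 1 to 4. The means were 35.4 ± 5.26 CPM in Bmi1-deleted and 35.6 ± 5.06 CPM in control libraries (log2 change −0.011, SE 0.17). In TPM the means were 3.15 ± 0.386 in Bmi1-deleted and 4.72 ± 1.78 in control libraries, and the groups overlapped.

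Per length, the order of the mean levels in Bmi1-deleted libraries was Mt1 (186 TPM), Mt2 (37.3 TPM), Slc30a1 (6.80 TPM), Mtf1 (3.15 TPM) and Mt3 (0.195 TPM), and in control libraries it was the same. Slc30a1 and Mtf1, next to each other in that order, did not overlap in Bmi1-deleted libraries (4.03 to 9.85 TPM for Slc30a1, 2.61 to 3.53 TPM for Mtf1) but did in control libraries (2.74 to 9.51 TPM for Slc30a1, 2.51 to 6.85 TPM for Mtf1). Mt1 exceeded Mt2 in every library. In the fit across all genes (edgeR quasi-likelihood test, Benjamini-Hochberg adjusted p under 0.05) 0 of the 4 tested genes were called, beside 0.0937% of all tested genes (0.0874% higher, 0.00625% lower). None of the 4 had groups without overlap in CPM, beside 5.18% of all tested genes (2.79% higher, 2.39% lower). With the replicate number as a block, which called 2.41% of all genes, Mt1 was called higher (log2 change 0.56, SE 0.11), where 1.71% of all genes were, and Mt2 was called lower (−0.69, SE 0.16), where 0.706% were. Slc30a1 (0.42, SE 0.14) and Mtf1 (−0.012, SE 0.16) were not called. The block assumes that the replicate numbers pair the libraries, which no label states. Because this contrast was known when the group was chosen, these calls are printed beside their background and nothing is read from them.

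Each gene except Mtf1 had the same sign in both sets of replicates that the first principal component parts. These sets were chosen after the data were seen and together make up the full contrast. Their values are therefore a description and add no support to the direction. Mt1 had a log2 change of 0.35 (SE 0.14) in replicates 1 and 2 alone and 0.76 (SE 0.15) in replicates 3 and 4 alone, Mt2 −0.63 (SE 0.20) and −0.80 (SE 0.22), and Slc30a1 0.42 (SE 0.18) and 0.38 (SE 0.26). Mtf1 had 0.023 and −0.065. The difference in the Mt1 share was 10.5 percentage points in replicates 1 and 2 and 16.1 in replicates 3 and 4. The summed fibroblast and Schwann cell markers given above were also at a higher level in the Bmi1-deleted libraries, although 0 of these markers passed the test. At an unadjusted edgeR p under 0.05, 5 of 10 tested fibroblast markers were higher (50%) and 1 was lower. Of 6 Schwann cell markers 4 were higher (66.7%) and 0 lower, against 4.82% higher over all tested genes. The melanocyte markers had a median log2 change of −0.73, with 1 of 12 above 0, and 0 passed the test. At an unadjusted edgeR p under 0.05, 8 of them were lower (66.7%, against 3.45% over all tested genes). With the fibroblast score of each library (the mean log2 CPM of its tested markers) in the fit, Mt1 had 0.32 (SE 0.17), Mt2 −1.09 (SE 0.21), Slc30a1 0.048 (SE 0.20) and Mtf1 −0.17 (SE 0.21), and 0 of the 4 were called. The part of Schwann cells or of melanocytes in these values was not tested. With sex, read from Xist and Y-linked genes, in the fit, Mt1 had 0.53, Mt2 −0.70 and Slc30a1 0.48. Bmi1-deleted library 1 and control libraries 1 and 3 read as female and the other libraries as male. The libraries numbered 3 thus differed in sex.

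**Figure D3:**
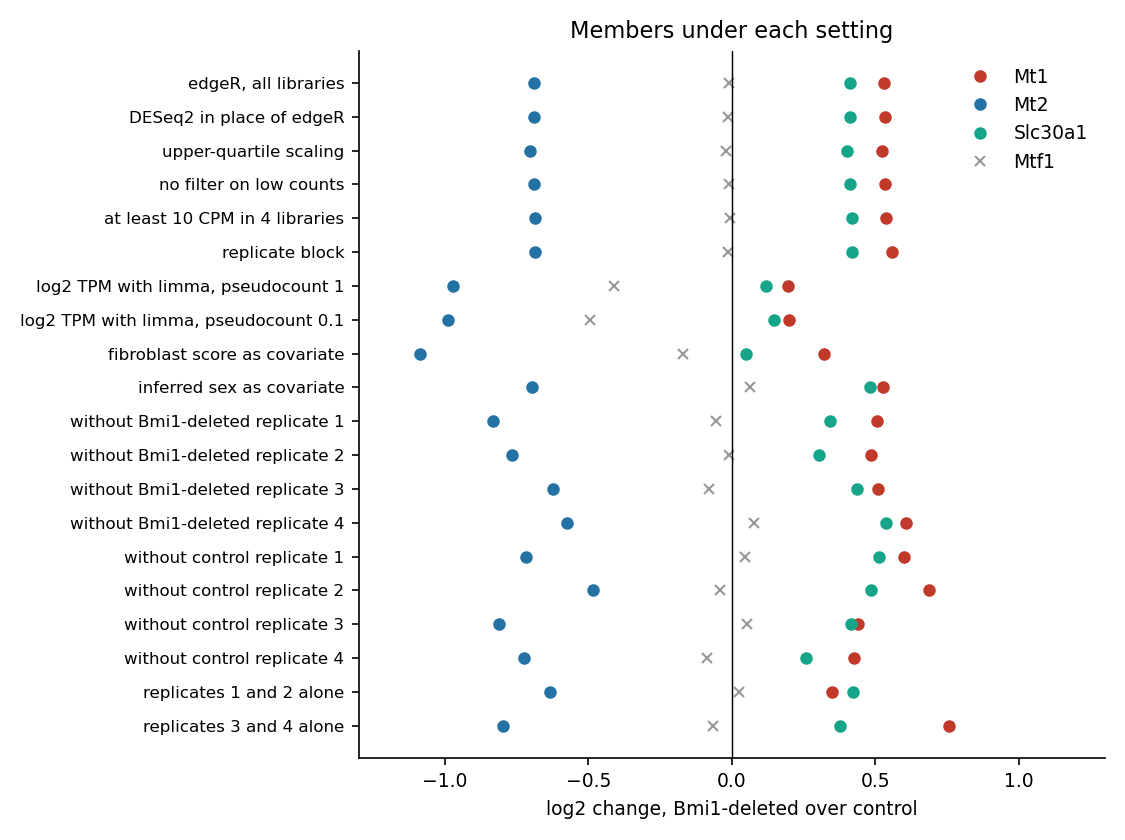
Log2 change of Mt1, Mt2, Slc30a1 and Mtf1, Bmi1-deleted over control (horizontal axis), under each of 20 ways of fitting the libraries (vertical axis, listed from the fit used in the text downward). Mt1 and Slc30a1 lie right of 0 and Mt2 left of 0 in all of them, while Mtf1 lies on both sides.

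Among themselves, the genes were compared across the 8 libraries after the mean of each group was subtracted from the log2 CPM, which removes the contrast itself. The permutations treat the 8 centred values as exchangeable. Over the 6 pairs of the 4 tested genes, Mt1 and Slc30a1 had a Pearson r of 0.79 (exact two-sided permutation p = 0.0224, adjusted over the 6 pairs 0.104) and a Spearman rho of 0.83 (exact permutation p = 0.0154, adjusted 0.0923). Mt1 and Mt2 had r = 0.75 (exact permutation p = 0.0346, adjusted 0.104) and rho = 0.60 (exact permutation p = 0.132, adjusted 0.397). Neither pair passed after adjustment. Without the 2 libraries farthest from the median of Mt1, control 3 and 4, r was 0.82 for Mt1 and Slc30a1 and 0.83 for Mt1 and Mt2. The libraries of replicates 1 and 2 held the higher Mt1 values in each group, and r was also taken with the replicate number subtracted. That leaves 4 independent values, the same-numbered differences, so it is given with no p. It was −0.51 for Mt1 and Slc30a1 and 0.20 for Mt1 and Mt2, so neither r kept its size. On log2 TPM in place of CPM, r for Mt1 and Mt2 was 0.94 (unadjusted exact permutation p = 0.00188) and rho 0.83 (unadjusted exact permutation p = 0.0154). The deposited TPM were not scaled by TMM here. TPM per CPM ran from 0.549 in Bmi1-deleted library 4 to 1.18 in control library 2 for Mt1. For Mt2 it ran from 0.700 to 1.52 in the same libraries. Both genes share this library factor and it enters that r, so the higher r is not read as a closer relation. Before the group means were subtracted, Mt1 and Mt2 had r = −0.19 in CPM; their group differences had opposite signs. Mt2 and Slc30a1 had r = 0.57 (exact permutation p = 0.139, adjusted 0.209) and rho = 0.50 (exact permutation p = 0.216, adjusted 0.432), r = 0.46 without the 2 libraries farthest in Mt2, and the opposite sign, r = −0.90, with the replicate number subtracted. Mtf1 and Slc30a1 had r = 0.69 (exact permutation p = 0.0613, adjusted 0.123) and rho = 0.29 (exact permutation p = 0.501, adjusted 0.751), but r = −0.53 without library 4 of each group, so that this relation rests on those libraries, and r = 0.087 with the replicate number subtracted. Mtf1 and Mt1 had r = 0.33 (exact permutation p = 0.424, adjusted 0.509) and rho = 0.048 (exact permutation p = 0.935, adjusted 0.935), r = 0.53 without the 2 libraries farthest in Mt1, and r = −0.58 with the replicate number subtracted. Mtf1 and Mt2 had r = 0.053 (exact permutation p = 0.897, adjusted 0.897) and rho = −0.17 (exact permutation p = 0.703, adjusted 0.844), r = 0.092 without the 2 libraries farthest in Mt2, and r = −0.15 with the replicate number subtracted.

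The genes whose log2 CPM most resembled each member over the 8 libraries were taken from 9189 genes with at least 10 CPM, by Pearson r, as a description. Nearest to Mt1 were the non-coding gene Rian (r = 0.994), Gas2l3 (0.994), Adam10 (0.993), Gpr153 (0.987) and Fam78b (0.981), and Rian, Adam10 and Gas2l3 were also the nearest after group means were subtracted (0.998, 0.990 and 0.988). The 5 nearest genes of Mt1 shared 3 with the 5 nearest after that subtraction. Nearest to Mt2 were Filip1l (0.986), Klhl12 (0.980), Abat (0.967), Mtch2 (0.966) and Mtbp (0.965). Slc30a1 was most like Itga2 (0.993), Bcas1 (0.981), Prss23 (0.980), Tmem198b (0.979) and Uaca (0.979), and Mtf1 was most like Wdr35 (0.952), Ube3c (0.926), Tnrc6c (0.923), Fam204a (0.905) and Rpap1 (0.902). Of these, the 5 nearest after group means were subtracted kept only 1 each, Filip1l for Mt2, Itga2 for Slc30a1 and Rpap1 for Mtf1. With 8 libraries and this many genes, values of this size are the upper end of a wide spread.

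Genes that handle zinc, copper and iron outside the group did not pass the test. Of 52 such genes 44 were tested, and edgeR called 0 higher and 0 lower, as did DESeq2 and the fit with the replicate block; at an unadjusted p under 0.05 there were 0 higher and 2 lower (4.55% of the 44), against 4.82% higher and 3.45% lower over all tested genes. Their median log2 change was 0.029, against 0.0062 over all tested genes, and 23 of 44 changes were above 0. The groups did not overlap for 0 higher and 2 lower genes, Cox17 and the iron regulator gene Ireb2, 4.55% of the 44 against 2.39% lower over all tested genes; with 2 genes this is no result about the list. Of the other zinc exporters of the Slc30 family 6 of 9 were tested (median −0.050) and of the zinc importers of the Slc39 family 11 of 14 (median 0.11). Other genes known under MTF-1 had 5 of 7 tested (median −0.039, from −0.14 to 0.35). That median is the value of Slc39a10, which is also among the importers. The list does not record the direction in which MTF-1 acts on each gene. Copper handling genes had 9 of 9 tested (median 0.043) and iron handling genes 14 of 14 (median 0.087). Within the lists the changes went both ways, from −1.03 to 1.63 over all 44 genes.

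By the rule for naming, the highest log2 changes among the 33 such genes with at least 10 CPM belonged to Cp, Slc25a28 and Ndrg1. Cp, a copper-bearing ferroxidase, stood at 42.2 ± 13.9 CPM in Bmi1-deleted and 29.7 ± 9.08 CPM in control libraries (log2 change 0.51, SE 0.27, edgeR adjusted p = 0.677). Slc25a28, a mitochondrial iron carrier, stood at 27.7 ± 6.07 CPM in Bmi1-deleted and 20.8 ± 5.67 CPM in control libraries (edgeR adjusted p = 0.707). Ndrg1, a stress-induced gene listed under MTF-1, stood at 367 ± 29.8 CPM in Bmi1-deleted and 287 ± 72.1 CPM in control libraries (edgeR adjusted p = 0.607). The lowest belonged to Slc39a14, Cox17 and Ftl1. Slc39a14, an importer of zinc, iron and manganese, stood at 86.0 ± 18.0 CPM in Bmi1-deleted and 114 ± 22.4 CPM in control libraries (log2 change −0.41, SE 0.17, edgeR adjusted p = 0.561). Cox17, a copper chaperone of mitochondria, stood at 19.5 ± 2.47 CPM in Bmi1-deleted and 25.6 ± 4.47 CPM in control libraries, without overlap (edgeR adjusted p = 0.639), and the ferritin light chain gene Ftl1, which has near-identical pseudogenes that can share its reads, at 235 ± 46.6 CPM in Bmi1-deleted and 294 ± 73.8 CPM in control libraries (edgeR adjusted p = 0.736). The rule did not take Atp7a, the copper pump that loads tyrosinase, which is named after its values were seen as the other gene with an unadjusted p under 0.05: it stood at 84.0 ± 12.7 CPM in Bmi1-deleted and 104 ± 12.2 CPM in control libraries (log2 change −0.31, SE 0.14, edgeR adjusted p = 0.582).

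**Figure D4:**
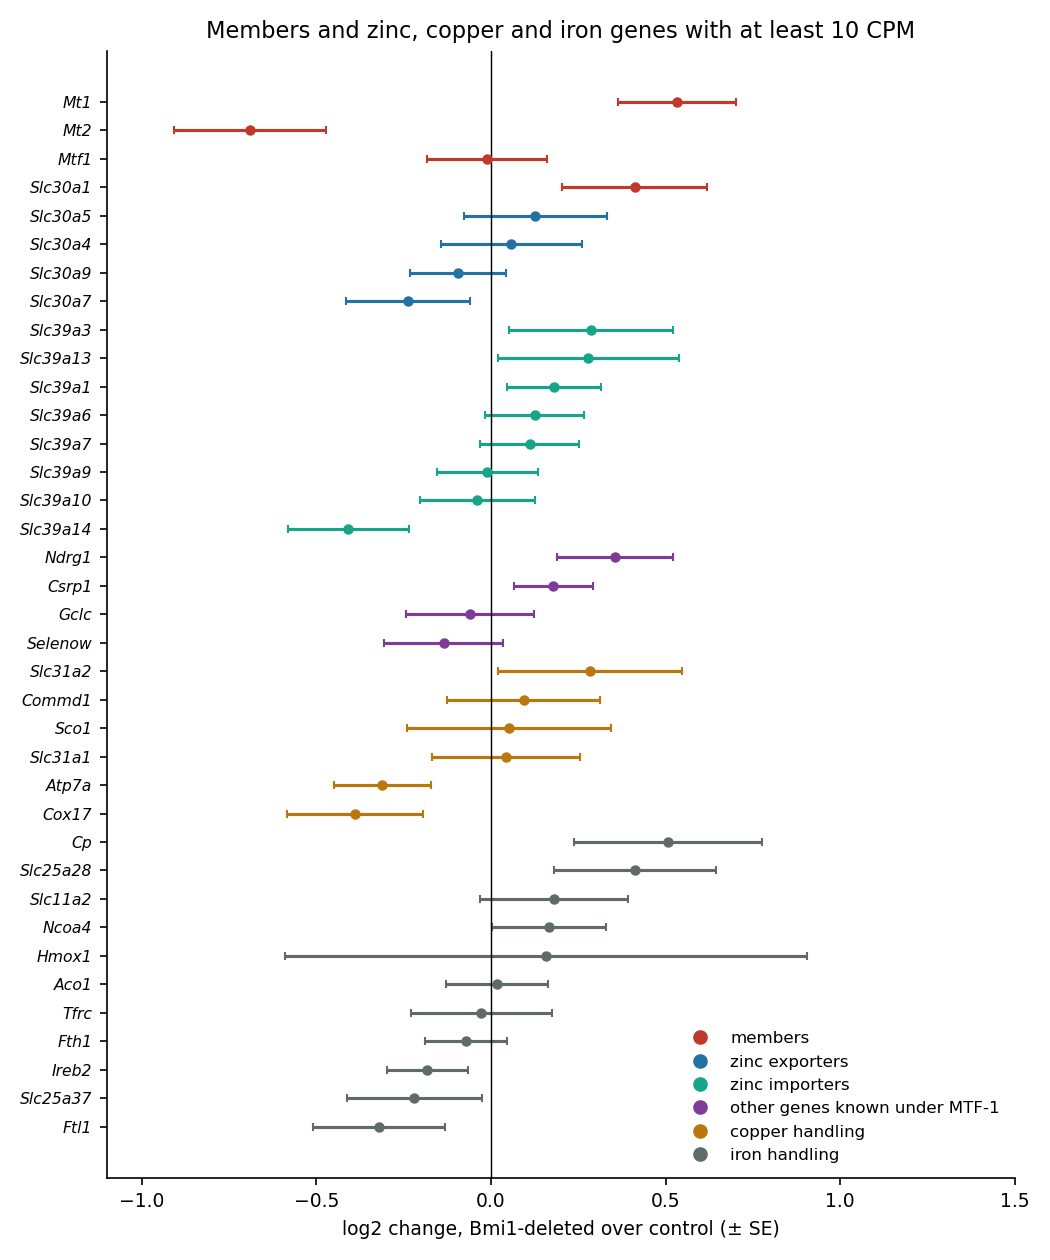
Log2 change, Bmi1-deleted over control (horizontal axis, ± SE), of the 4 tested members and of the zinc, copper and iron genes with at least 10 CPM, coloured by list and ordered within it. Of the 33 genes outside the group 0 passed the test, and their changes run from −0.41 for Slc39a14 to 0.51 for Cp, between Mt2 at −0.69 and Mt1 at 0.53.

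The neighbours of Mt1 and Mt2 on chromosome 8 did not pass the test either. Of 9 protein-coding genes outside the group that reach within 250000 bases of Mt1, 7 were tested. Both edgeR and DESeq2 called 0 of them, beside 0.0937% and 1.09% of all tested genes. At an unadjusted edgeR p under 0.05 there were 0, against 4.82% higher and 3.45% lower over all tested genes. With 7 genes this is no result about the locus. Their log2 changes ran from −0.26 (SE 0.20) for Nudt21, a factor of mRNA 3′ end processing, to 0.41 (SE 0.22) for Gnao1, a G protein subunit. Nup93, the nearest tested gene downstream of Mt1 and a part of the nuclear pore, stood at 29.8 ± 3.06 CPM in Bmi1-deleted and 34.2 ± 6.30 CPM in control libraries (edgeR adjusted p = 0.868). Bbs2, the nearest upstream of the cluster and a gene of the cilium, stood at 18.5 ± 5.70 CPM in Bmi1-deleted and 16.3 ± 1.11 CPM in control libraries (edgeR adjusted p = 0.920). Mt1 and Mt2, whose starts lie 6418 bases apart, had log2 changes outside that range, at 0.53 and −0.69; the difference from the neighbours was not tested.

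**Figure D5:**
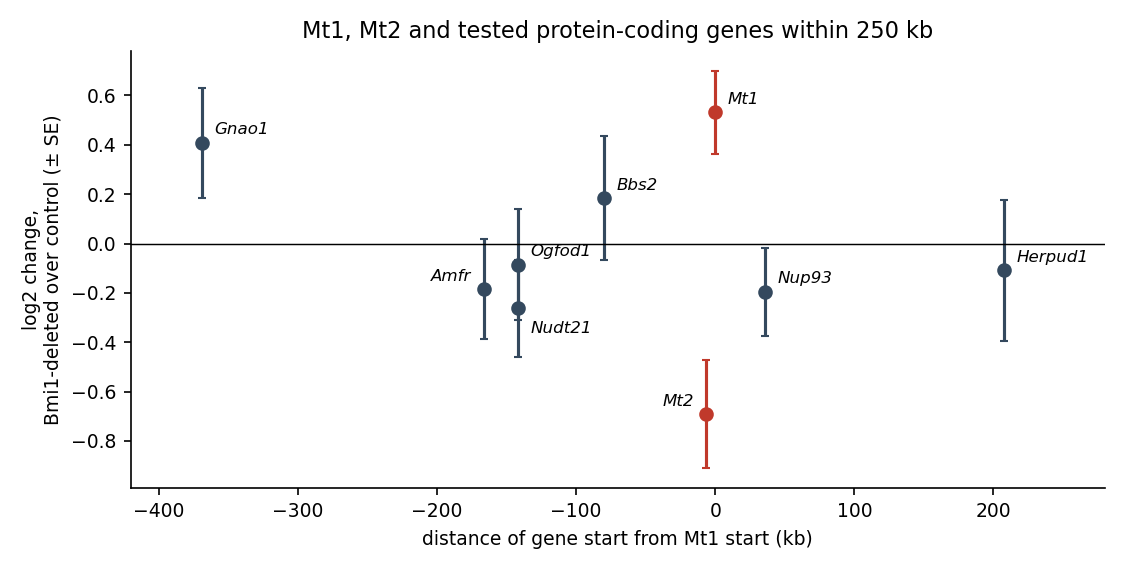
Log2 change, Bmi1-deleted over control (vertical axis, ± SE), against the distance of each gene's start from that of Mt1 in kb (horizontal axis) for Mt1 and Mt2 in red and the 7 tested neighbouring protein-coding genes in blue. Mt1 lies at 0.53 and Mt2 at −0.69, and the neighbours lie between −0.26 and 0.41.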

How the data were processed

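Counts and log2 values were deposited for each library. The estimated counts per gene were deposited unnormalised, already as whole numbers; Salmon 1.2.1 and mm10 are the tool and build that the submitters' processing notes name. The deposited log2 values are of TPM plus 1, as read from their column totals. The sources used here give neither annotation version nor strand setting. Per the labels' protocols, more than 10000 sorted cells gave RNA, of which 1 ng went into a total RNA kit with 2 rounds of 15 cycles of PCR. No molecular identifiers are mentioned.

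Symbols and positions came from GENCODE M21, which named 54166 of 54418 identifiers. Counts were filtered (filterByExpr, 16011 genes kept), scaled by TMM and compared with the quasi-likelihood test of edgeR 4.0.16 (robust, R 4.3.3), tested first on simulated data. In the simulated data, 63% of 100 genes with a log2 change of 1 and 92% of 100 genes with a log2 change of 2 were called. There 8 unchanged genes were called too, and changes smaller than 1 were not simulated. The changed genes were drawn from those with a mean of at least 10 CPM, so genes below that level were not covered. A list with 0 genes called may therefore hold changes of these sizes as well as smaller ones. Standard errors came from the F statistic. The alternatives were DESeq2 1.42.0, limma 3.58.1 on log2 TPM, 2 filters, upper-quartile scaling, covariates, a replicate block and leaving out each library. Same-numbered libraries, centred within group, correlated across genes at 0.124 to 0.186, all over 0.1. The numbers were taken to pair the libraries, but this is an assumption, and no label explains it. Correlations between differently numbered libraries were not taken for comparison. The first principal component parted the same replicate numbers in both groups, so these correlations cannot tell a pairing from that split. The replicate block and the same-numbered comparisons rest on this assumption. Libraries of 1 group differed from each other by 12.2 to 38.2 times the variance of counting.

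The genes of the group and all lists were chosen with earlier results of these data known. Genes outside the group were named by size of change (the 3 highest and the 3 lowest with at least 10 CPM) or, for other lists, by the 4 highest levels. Promoter windows came from RefSeq for all 5 genes. Protein sequences were not used here.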

Additional observations from a re-analysis of the deposited data

Results flagged for a closer look

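Of 26 checks for a library far from the other 3 of its group, 2 marked 1, both for Mt3 in control library 2; chance marks about 1 group in 20. It stood at 0.103 CPM and 0.135 TPM where the other control libraries had 0. This is a single count, under the floor of 3 counts.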

How the results depend on the processing

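Over 19 alternatives Mt1 kept a log2 change above 0 (0.20 to 0.76) and Mt2 one below 0 (−1.09 to −0.48), and Slc30a1 one above 0 (0.048 to 0.54). On log2 TPM, where the median of all genes shifted by −0.14 with a pseudocount of 1 and −0.21 with 0.1, Mt1 had 0.20 with either (0.33 and 0.41 relative to that median) and Mtf1 −0.41 and −0.49 (−0.27 and −0.28 relative to it). With the fibroblast score Mt2 had −1.09 and Slc30a1 0.048. Mtf1, near 0, was above it with sex in the fit (0.065), in replicates 1 and 2 alone (0.023), and without 1 library in 3 of 8 fits (−0.087 to 0.077 over all 8). Leaving out 1 library gave 0.43 to 0.69 for Mt1, −0.83 to −0.48 for Mt2 and 0.26 (without control 4) to 0.54 for Slc30a1. The difference in the Mt1 share was 10.5 percentage points in replicates 1 and 2 alone, 16.1 in replicates 3 and 4 alone (both chosen after seeing the data), 14.5 in TPM and 12.05 to 14.5 without 1 library. The within-group r of Mt1 and Mt2 was 0.94 on log2 TPM, where a library factor shared by both genes enters it. It was 0.20 with the replicate block (4 same-numbered differences) and 0.56 to 0.85 without 1 library. The unadjusted exact permutation p stayed under 0.05 without control 1 or 4 or Bmi1-deleted 1 or 3, and did not without Bmi1-deleted 2 (0.0667) or 4 (0.0865) or control 2 (0.187) or 3 (0.106).

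Over all genes, 14 were called higher and 1 lower. The counts were 113 and 48 with DESeq2, 259 and 121 with no filter, 273 and 113 with the replicate block, 3 and 1 on log2 TPM with a pseudocount of 1 (2 and 1 with 0.1), and 83 and 73 in replicates 1 and 2 alone. Upper-quartile scaling called 3 lower, a filter of 10 CPM in 4 libraries 2, and replicates 3 and 4 alone 6. Without 1 library 8 (without control 2) to 40 (without control 1) were higher and 0 to 5 lower, with 5 without control 1 and 2 without Bmi1-deleted 4. Bmi1-deleted 2 also moved the higher count, to 9. The cause was not tested. Mt1 and Mt2 were called with the block, which called 2.41% of 16011 genes, and with no filter, which called 1.09% of 34973 genes. Under the other alternatives 0 of the 5 genes were called. No zinc, copper, iron or neighbouring gene was called under any. Mt3 and Mt4 had 0 to 6 counts a library, and no fold change is given for them.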

Other observations

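Glucocorticoids and cell stress are known to induce Mt1 and Mt2, and genes that respond to them were read in the same libraries. Of 10 glucocorticoid-induced genes, all tested, edgeR and DESeq2 called 0, beside 0.0937% and 1.09% of all tested genes. At an unadjusted edgeR p under 0.05 there were 0, against 4.82% higher and 3.45% lower over all tested genes. With 10 genes this is no result about the list. The median log2 change was 0.030. The clock gene Per1 stood at 310 ± 21.7 CPM in Bmi1-deleted and 303 ± 26.4 CPM in control libraries (edgeR adjusted p = 0.979) and the factor gene Klf9 at 322 ± 11.5 CPM in Bmi1-deleted and 302 ± 28.4 CPM in control libraries (edgeR adjusted p = 0.911). Glul, glutamine synthetase, had a log2 change of −0.11 and Errfi1, an inhibitor of ErbB receptors, of 0.23.

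Of 21 genes of tissue dissociation and stress edgeR called 0, DESeq2 called 0, and 2 were higher and 0 lower at an unadjusted p under 0.05 (9.52% higher, against 4.82% over all tested genes). The list had 18 of 21 log2 changes above 0 (85.7%, against 50.7% over all tested genes), with a median of 0.20 against 0.0062 over all tested genes. The immediate early genes Fos and Egr1 stood at 1873 ± 686 and 1654 ± 421 CPM in Bmi1-deleted and at 1556 ± 469 and 1350 ± 429 CPM in control libraries (edgeR adjusted p = 0.901 and 0.861), and Jun had a log2 change of 0.22. The heat shock gene Hsp90aa1 stood at 1266 ± 299 CPM in Bmi1-deleted and 1272 ± 367 CPM in control libraries. The part of dissociation in the level of Mt1 or Mt2 was not tested.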
